A study of Homo sapiens with 8 samples.

Results

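SPARC, GNG11, ZC4H2, DPEP1 and GRHL3 were the genes chosen for the largest changes in CDK2-/- HCT-116 cells against WT cells, SPARC and GNG11 as falls and ZC4H2, DPEP1 and GRHL3 as rises. All 6 array probes that carry one of these 5 gene names were taken, among 36337 gene names on the array. Of the 6 probes, 5 reached a signal well above background on each array of some group and were tested, 1 for each gene, and a second GRHL3 probe did not. Each of the 5 passed in WT itself. Because the genes were chosen on the CDK2-/- and WT arrays, every value of these 5 genes that involves CDK2-/- is given as a description without a test.

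HCT-116 is a human colorectal carcinoma line, and CDK2 is a kinase that drives entry into and passage through DNA replication. There were 4 groups of 2 arrays each. WT was the untreated parental line. WT+NU6102 was the parental line after 24 h in 20 µM NU6102, a purine inhibitor of CDK1 and CDK2. CDK2-/- was an untreated knockout of the same line, bought together with its parent, and R50 was a line grown from the outset and kept in 50 µM NU6102. R50 cells therefore carried a history of selection and, by the way the line was kept, the drug itself. The array methods do not say whether NU6102 was present when R50 cells were harvested. The CDK2-/- cells had never been given NU6102 in this design. Whether the CDK2-/- or the R50 line is 1 clone is not given in the sources used here. The duplicates are described as biological replicates, and with 2 arrays a group the precision is limited.

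Each value is the scanner's background-subtracted signal. For comparisons its log2 was lowered by the array's own 75th percentile, which lay between 9.36 and 9.56 on all 8 arrays. Both arrays of CDK2-/- and R50 were on slide 1 and both of WT and WT+NU6102 on slide 2. Only the effect of NU6102 on WT and the difference of R50 from CDK2-/- lie within a slide. Elsewhere the slides differ along with the groups, and these cannot be told apart. Duplicates correlated at 0.994 to 0.996 across the tested probes, which are not independent replicates. Of 8 markers of colorectal epithelium, 7 were well above background on every array and VIL1, the microvillus protein villin, on none. Of 9 fibroblast markers, COL1A1 was the only one well above background on 7 of the arrays, and 3 were on the first CDK2-/- array. The CDK2 probe read 423 and 417 in WT, 550 and 537 in WT+NU6102, 224 and 228 in CDK2-/- and 317 and 326 in R50. It was lower by 0.78 on the log2 scale in CDK2-/- (SE 0.0449, adjusted p = 0.000271) and was still well above background there. Where this probe lies relative to the deletion is not given in the sources used here.

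The 5 genes have unrelated known roles. SPARC encodes a secreted matricellular glycoprotein that binds collagen and calcium and modulates the contact of cells with their matrix. GNG11 encodes a gamma subunit of heterotrimeric G proteins, which pairs with a beta subunit at the membrane to relay signals from receptors. GRHL3 is a Grainyhead transcription factor needed for epidermal barrier formation and neural tube closure. ZC4H2 is an X-linked zinc finger protein that partners the ubiquitin ligase RNF220 in neural development. DPEP1 is a membrane-anchored dipeptidase that cleaves cysteinylglycine, released from glutathione, and leukotriene D4.

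The oligonucleotides on the array show exactly which stretch of each transcript the values come from. The probe of DPEP1 is given whole, with all its 60 bases, and the first 30 bases are given for the others. Positions are those of hg19 as the files of the slide 2 arrays give them, and those files do not say which exon or untranslated region a probe lies in.
SPARC (NM_003118, chr5:151041040-151041099, minus strand): ccacatacctagatctccagatgtcatttc
GNG11 (NM_004126, chr7:93555764-93555823, plus strand): cttgagcatgacacttctttcagtatattg
ZC4H2 (NM_018684, chrX:64136396-64136455, minus strand): gggagggggatatttttccttccttaagta
DPEP1 (NM_004413, chr16:89703894-89703953, plus strand): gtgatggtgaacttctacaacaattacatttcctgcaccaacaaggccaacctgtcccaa
GRHL3, tested probe (NM_198173, chr1:24681534-24681593, plus strand): atcgactggaacaaagtgaccgctgtgtaa
GRHL3, second probe (NM_198174, chr1:24690909-24690968, plus strand): gagagctctcagctcagagtatgtggcccc
The GRHL3 probes name different transcripts, and only the probe for NM_198173 gave a signal well above background. GNG11 has 10 repeat spots on each array and the others 1, so GNG11 alone carries a measure of the spread within an array.

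**Figure D1:**
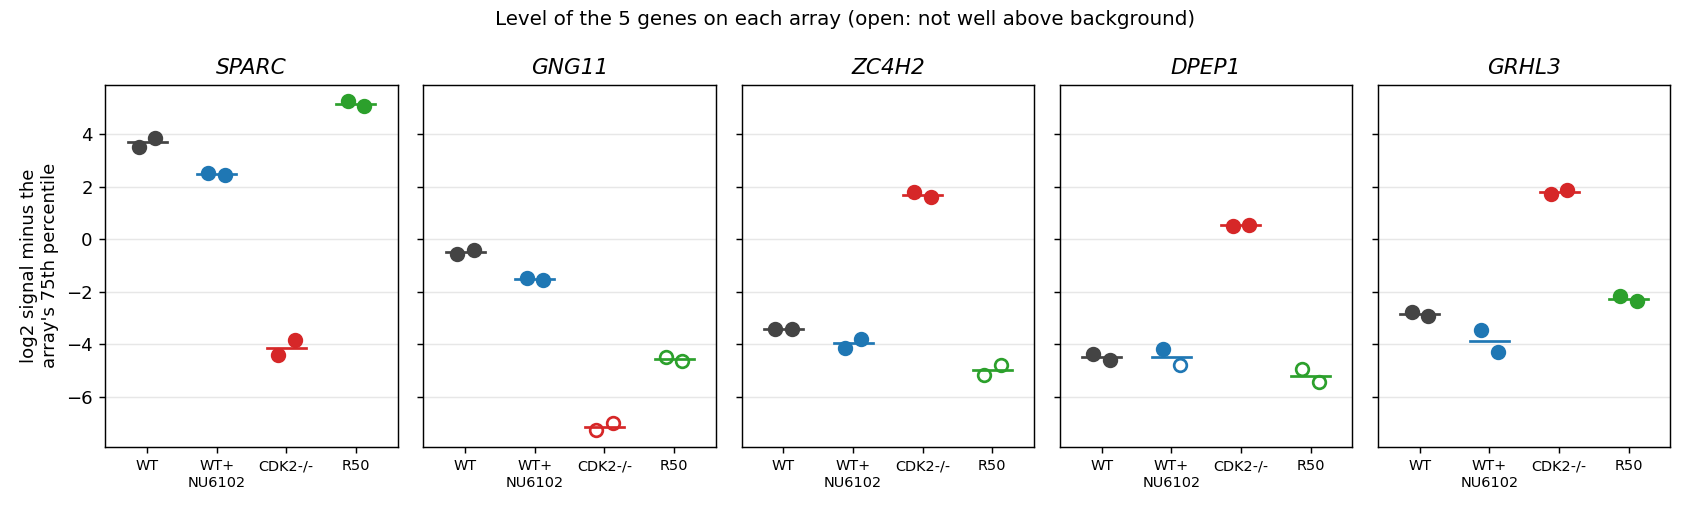
Level of SPARC, GNG11, ZC4H2, DPEP1 and GRHL3 on each of the 8 arrays, as log2 signal minus the 75th percentile of the array, with 2 points and their mean (line) per group; open points are arrays on which the probe was not well above background. SPARC was lowest and the 3 chosen rises were highest in CDK2-/-, and for GNG11 neither CDK2-/- nor R50 was well above background.

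SPARC was the gene with the widest range over the groups. Its signal was 8397 and 10320 in WT, 4350 and 3975 in WT+NU6102, 31.6 and 45.7 in CDK2-/- and 26290 and 23900 in R50. Every array measured it well above background, and no 2 groups overlapped. Groups without overlap were also found for 69.1% of tested probes in CDK2-/- against WT, 74% in WT+NU6102 against WT, 63.4% in R50 against WT, 75.2% in R50 against WT+NU6102, 69% in R50 against CDK2-/- and 77.9% in CDK2-/- against WT+NU6102. The groups stood in the order R50, WT, WT+NU6102 and CDK2-/-, with CDK2-/- 226-fold below WT and R50 631-fold above CDK2-/- on the same slide. In bulk RNA a lower level can mean fewer cells that express a gene or less RNA in each cell, and these cannot be told apart. Fibroblasts are known for high SPARC, and the summed level of the 9 fibroblast markers was 0.211 and 0.217 in WT, 0.141 and 0.169 in WT+NU6102, 0.424 and 0.739 in CDK2-/- and 0.289 and 0.321 in R50, in multiples of each array's 75th percentile, and its part in the result was not tested.

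The 3 groups other than CDK2-/- could be tested against each other for SPARC. It fell by 1.20 on the log2 scale with NU6102 (95% interval -1.72 to -0.69, adjusted p = 0.00566) and rose by 1.48 in R50 against WT (0.97 to 1.99, adjusted p = 0.00783). Between R50 and WT+NU6102, 2 groups that hold none of the arrays used to choose the genes, the difference was 2.68 (2.17 to 3.20, adjusted p = 0.000222), or 6.42-fold. Both groups were exposed to the same compound, and SPARC lay on opposite sides of WT in them. Dose and time of exposure differed, so no comparison by dose is made.

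GNG11 lost its signal in CDK2-/- cells and most of it in R50 cells. The mean over its spots was 494 and 540 in WT, 274 and 251 in WT+NU6102, 4.34 and 5.22 in CDK2-/- and 31.6 and 28.9 in R50. None of the usable spots of CDK2-/- was well above background, and in R50 4 of 10 were on each array, so both groups count as not well above background. CDK2-/- was at least 25.2-fold below WT, where the bound sets each dim array at its lowest signal that was well above background or at the probe's own signal, whichever is higher. The spots of R50 ran from 19.9 to 44.3 on the first array and from 20.6 to 40.1 on the second, all above the highest usable spot of CDK2-/-, 5.76. No fold is given between R50 and CDK2-/-, since both are below background by this definition.

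GNG11 fell in both tested groups against WT, with a log2 difference of -1.02 with NU6102 (95% interval -1.32 to -0.72, adjusted p = 0.00148) and of -4.08 in R50 (adjusted p = 0.000114), where the fall is at least 16.9-fold. R50 was also below WT+NU6102, by at least 8.32-fold (log2 difference -3.06, adjusted p = 3.80e-05). SPARC and GNG11, the pair chosen as falls, thus both fell with NU6102 and went opposite ways in R50. The scanner software marked 1 spot of GNG11 on the first CDK2-/- array and 2 on the second as outliers, the brightest at 85.4. Those spots were left out, and with them kept the difference between CDK2-/- and WT was -6.29 in place of -6.65.

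**Figure D2:**
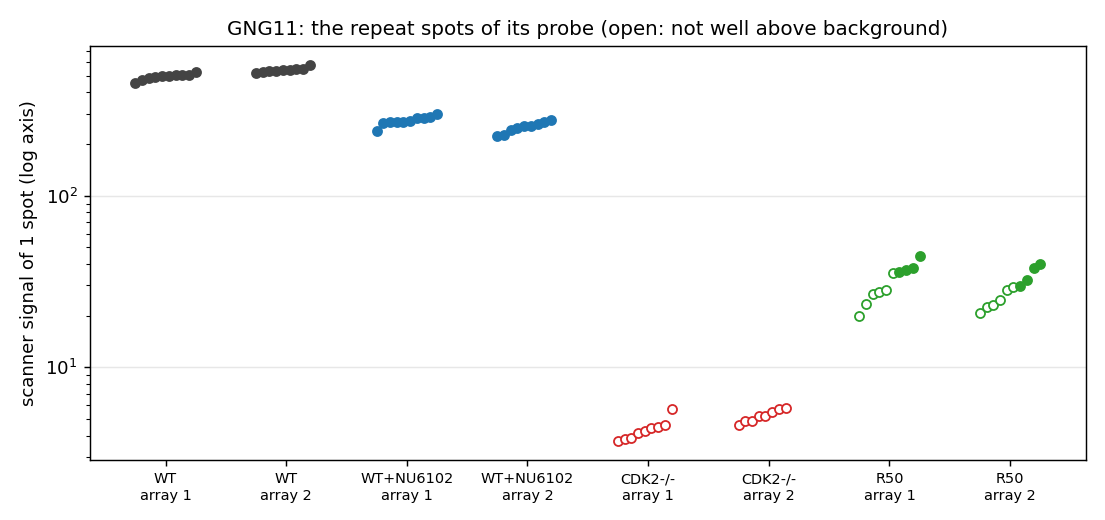
Signal of each usable repeat spot of the GNG11 probe on the 8 arrays (log axis), with open points for spots not well above background. The spots of R50 lie between 19.9 and 44.3, between those of WT+NU6102 (223 and above) and those of CDK2-/- (5.76 and below).

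GRHL3 was low but measurable outside the knockout. Its tested probe read 107 and 93.8 in WT, 68.3 and 37.3 in WT+NU6102, 2240 and 2436 in CDK2-/- and 153 and 138 in R50. The 4 groups did not overlap, and CDK2-/- was 25.2-fold above WT. GRHL3 fell by 1.03 on the log2 scale with NU6102 (95% interval -1.68 to -0.38, adjusted p = 0.0233), a group whose 2 arrays differed more than those of any other group for this gene. The difference between R50 and WT was 0.58 (-0.07 to 1.23, adjusted p = 0.172) and did not pass the test. R50 exceeded WT+NU6102 by 1.62 (0.97 to 2.27, adjusted p = 0.00357). Without the first or the second WT+NU6102 array the difference with NU6102 was -1.44 or -0.62, the latter under a difference of 1. The fall lost its call without either WT array (adjusted p = 0.102 and 0.0702) and within the slide of WT and WT+NU6102 alone (adjusted p = 0.0742).

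The second GRHL3 probe read between 5.99 and 12.1 on the 8 arrays and was not well above background on any. In CDK2-/- it read 10.8 and 10.4, against 5.99 and 9.92 in WT. A rise of the size seen with the first probe was therefore not measured on the transcript NM_198174, for which only this probe is present.

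ZC4H2 followed the same order as GRHL3 except in R50. Its signal was 69.0 and 65.9 in WT, 43.3 and 52.3 in WT+NU6102, 2313 and 2019 in CDK2-/- and 19.2 and 25.5 in R50. CDK2-/- was 34.7-fold above WT, while R50 was not well above background on either array and was at least 102-fold below CDK2-/- on the same slide. In R50 it fell at least 2.94-fold against WT (log2 difference -1.56, adjusted p = 0.00362) and at least 2.02-fold against WT+NU6102 (log2 difference -1.01, adjusted p = 0.00374). With NU6102 ZC4H2 was 0.54 lower on the log2 scale (95% interval -0.96 to -0.13, adjusted p = 0.0433). This last call was lost without either WT array (adjusted p = 0.143 and 0.125), either CDK2-/- array (0.0639 for each) or the first WT+NU6102 array (0.17).

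DPEP1 was close to background in every group except CDK2-/-. Its signal was 35.4 and 29.4 in WT, 41.6 and 26.3 in WT+NU6102, 961 and 972 in CDK2-/- and 22.2 and 16.0 in R50. Both WT arrays, the first WT+NU6102 array and both CDK2-/- arrays were well above background, and neither R50 array was. CDK2-/- was 32.4-fold above WT and at least 44.0-fold above R50. WT+NU6102 and WT overlapped and differed by -0.01 on the log2 scale (95% interval -0.63 to 0.62, adjusted p = 0.984), an interval that leaves room for a change of up to 0.63 either way. R50 lay below both, at least 1.36-fold below WT (measured log2 difference -0.73, adjusted p = 0.0951) and at least 1.35-fold below WT+NU6102 (measured log2 difference -0.72, adjusted p = 0.0582), and neither difference passed the test. DPEP1 passed against WT+NU6102 without the first R50 array (adjusted p = 0.0419) or the second WT+NU6102 array (adjusted p = 0.0235).

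**Figure D3:**
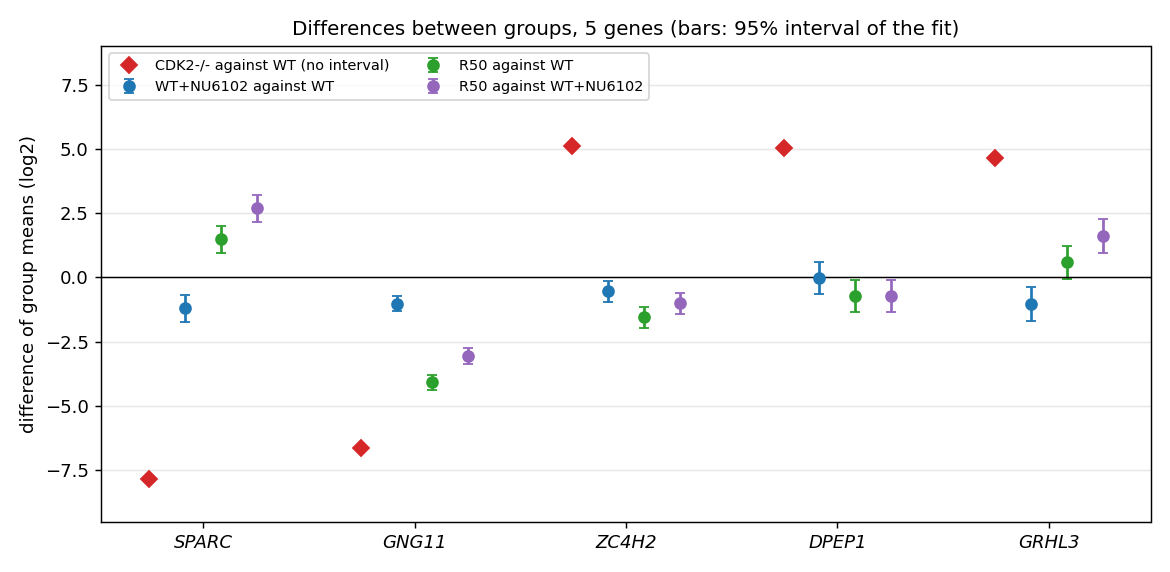
Log2 difference of group means for the 5 genes in CDK2-/- against WT (diamonds, no interval since the genes were chosen on it), WT+NU6102 against WT, R50 against WT and R50 against WT+NU6102 (circles with the 95% interval of the fit). With NU6102 no difference lay above 0, and in R50 SPARC rose while GNG11 and ZC4H2 fell.

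With NU6102, 4 of the 5 genes had an adjusted p under 0.05, all lower than WT, where 44.7% of all tested probes passed and 21.1% were lower. In R50 against WT 3 of 5 passed, where 22.6% of probes did. In R50 against WT+NU6102 4 of 5 passed, where 51.4% of probes did. With a difference of at least 1 on the log2 scale as well, 3, 3 and 4 genes passed in these comparisons, beside 6.49%, 2.59% and 10.9% of probes. Of these, GNG11 with NU6102 (-1.02) and ZC4H2 in R50 against WT+NU6102 (-1.01) passed narrowly. They fell to as little as -0.94 and -0.82 when 1 array was left out. The first 2 of these comparisons use the same WT arrays as the choice of the genes. In CDK2-/- against WT, 4.74% of probes passed both thresholds, and nothing is read from that for genes chosen on it.

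The choice of these 5 genes depended on what was required of dim probes. Among 14487 genes of the reference table that were well above background on both arrays of both groups, ZC4H2, DPEP1 and GRHL3 were the 3 highest log2 differences of CDK2-/- against WT, at 5.12, 5.02 and 4.66. The next were UTS2 at 4.23, AQP3 at 3.73 and RNF43 at 3.71. SPARC was the lowest at -7.82, followed by the interferon-induced genes IFITM1 at -6.37, BST2 at -6.21 and IFI27 at -6.00. GNG11 was not in that ranking, because CDK2-/- was not well above background. Over all 15317 tested genes that the reference table holds, dim ones included, ZC4H2, DPEP1 and GRHL3 ranked 6, 9 and 17 from the top.

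Levels near background also set how large these differences come out. With normexp background correction, which adds an offset before the log, the differences of CDK2-/- against WT were -6.35 for SPARC, -3.04 for GNG11, 4.01 for ZC4H2, 3.32 for DPEP1 and 3.81 for GRHL3. All 5 kept their direction.

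Each member was set beside the known relatives of its product. Of 14 other SPARC family and matricellular genes, 9 were tested. Only CTGF passed with a log2 difference of at least 1 in CDK2-/- against WT, where 4.74% of probes did. CTGF, a secreted matricellular protein, read 105 and 105 in WT and 16.9 and 18.2 in CDK2-/-, where it was not well above background, and was at least 5.12-fold lower (log2 difference -2.46, adjusted p = 0.000855). The median of the 9 was -0.11, beside 0.02 over all genes tested. With NU6102 3 of the 9 passed, CTGF (-1.50), SPOCK3 (-1.49) and CYR61 (-1.08), all lower, beside 6.49% of all probes, and the median was -0.84 beside 0.04 over all genes. In R50 against WT+NU6102 CTGF (1.47), SPP1 (1.40) and CYR61 (1.096) were higher, as SPARC was, beside 10.9% of all probes past both thresholds. Against WT none of these relatives passed in R50, with CTGF at -0.03, SPP1 at 0.42 and CYR61 at 0.01, where SPARC was 1.48 higher. SPOCK3, a testican proteoglycan of the SPARC family, was lower in R50 against WT (log2 difference -1.07, adjusted p = 0.0164), where SPARC was higher. That call was lost without either WT array (adjusted p = 0.0601 and 0.0823) and, by falling to -0.82, without the first R50 array.

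Of 16 other G protein gamma and beta subunits, 14 were tested. None passed both thresholds in CDK2-/- or with NU6102, beside 4.74% and 6.49% of all probes, so that the count is near the background. The differences of the 14 in CDK2-/- ran from -0.95 (GNG7) to 0.66 (GNG4), where GNG11 was at least 25.2-fold lower. GNG11's own neighbour in the genome, GNGT1, differed by 0.35. GNG3 was measured only in R50, at least 2.65-fold above WT (adjusted p = 0.0430), and it lost that call when any WT, R50 or WT+NU6102 array was left out. It could be tested only because of its level in R50, so that a higher level there was bound to be found. GNG3 and GNG7 were higher in R50 than in WT+NU6102, the former at least 2.68-fold and the latter by 1.06 on the log2 scale, while GNG11 was lower. These 2 of the 14 were the ones past both thresholds, beside 10.9% of all probes, so that the count is near the background. The median of the 14 in that comparison was 0.49 beside -0.06 over all genes.

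Of the other 5 Grainyhead and CP2 factors, all were tested. None passed both thresholds in CDK2-/-, beside 4.74% of all probes, so that the count is near the background. GRHL1 differed by 0.10 and GRHL2 by 0.35 in CDK2-/-, against 4.66 for GRHL3. GRHL2, the Grainyhead factor of simple epithelia, was 0.81 lower with NU6102 (adjusted p = 0.00192), in the direction of GRHL3. In R50 against WT+NU6102 TFCP2L1 was the only one of the 5 past both thresholds, beside 10.9% of all probes, and it was lower (-1.31). Of 8 other genes listed with ZC4H2, its partner RNF220 and neural tube patterning genes, 5 were tested and none passed both thresholds in any of the 4 comparisons. These counts are near the background, where 4.74% (CDK2-/- against WT), 6.49% (NU6102), 2.59% (R50 against WT) and 10.9% (R50 against WT+NU6102) of all probes passed. RNF220 differed by -0.12 in CDK2-/-, where ZC4H2 was 34.7-fold higher.

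Of 17 other dipeptidase and glutathione cycle genes, 16 were tested. GGT5, a gamma-glutamyl transferase that acts on leukotriene C4 and so forms the substrate of DPEP1, was the only one of the 16 past both thresholds against WT, in comparisons where 4.74% (CDK2-/-), 6.49% (NU6102) and 2.59% (R50) of all probes were, so that the count is near the background. GGT5 read 407 and 455 in WT, 119 and 114 in WT+NU6102, 88.5 and 97.0 in CDK2-/- and 185 and 171 in R50, with all 3 groups below WT. Its log2 differences from WT were -1.93 with NU6102 (adjusted p = 0.000158), -2.10 in CDK2-/- (adjusted p = 0.000135) and -1.23 in R50 (adjusted p = 0.00140). DPEP3 differed by 0.05 in CDK2-/-, and the median of the 16 was -0.01.

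**Figure D4:**
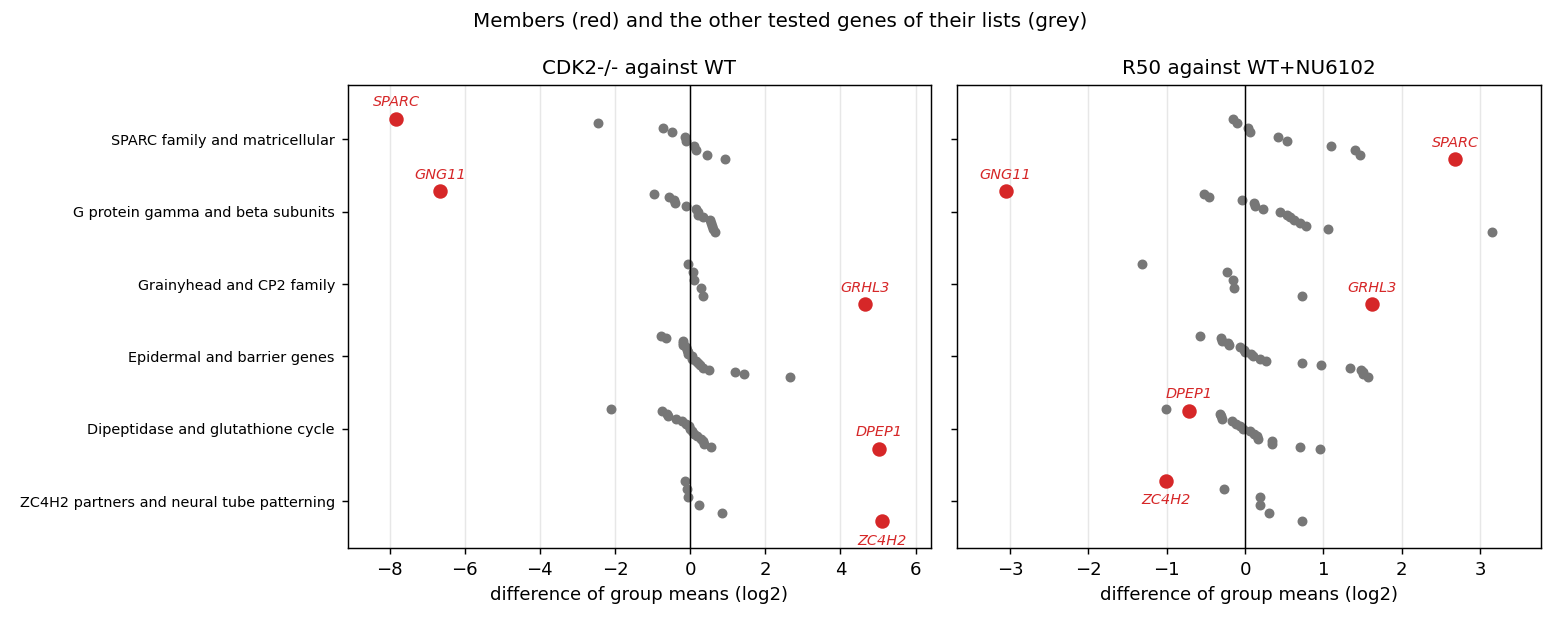
Log2 differences of CDK2-/- against WT (left) and R50 against WT+NU6102 (right) for the 5 genes (red) and the other tested genes of their lists (grey), 1 row of points per list. On the left no grey point lies beyond 2.65, while the red points were chosen for their size and lie at 4.66 or more from 0. The grey point at 2.65 is SPRR2A, which was not well above background in WT. CTGF (-2.46) and GNG11 (-6.65) were not so in CDK2-/-, so that the places of these genes are no measured differences. On the right the grey point at 3.15 is GNG3, whose level in WT+NU6102 was not well above background, so that its place is no measured difference.

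Position in the genome was looked at through the nearest 2 genes on each side in the reference table, since the choice of the members did not use it. Of 20 such neighbours 10 were tested, and 3 passed both thresholds in CDK2-/- against WT, beside 4.74% of all probes. ZC3H12B, a zinc finger gene of the regnase family next to ZC4H2 on the X chromosome, was not well above background on any array but the 2 of CDK2-/-. It read 129 and 124 in CDK2-/- and between 4.73 and 10.2 on the other 6 arrays. CDK2-/- was at least 5.93-fold above WT for ZC3H12B (adjusted p = 0.000504), in the direction of ZC4H2. It could be tested only because of its level in CDK2-/-, so that a difference was bound to be found. C16orf55, now SPATA33, next to DPEP1, was also higher, by 1.104 on the log2 scale (adjusted p = 0.000580). BET1, a vesicle transport gene next to GNG11, was lower (log2 difference -1.02, adjusted p = 0.000844), and fell short of a difference of 1 without the first WT array (-0.99) or the second CDK2-/- array (-0.94). C16orf55 and BET1 lay in the direction of the member beside them. ZC3H12B, counted among the 3, could only come out higher by the filter, so its direction says nothing further. Under normexp correction C16orf55 (0.83) and BET1 (-0.83) fell short of a difference of 1, and of the 3 only ZC3H12B stayed past it. The other neighbours of DPEP1, CPNE7, RPL13 and CHMP1A, differed by 0.67, -0.04 and -0.05, and those tested beside GRHL3 by 0.23 at most. Opposite to the falling member beside them, GNGT1 at GNG11 was 0.35 higher (adjusted p = 0.00798) and SLC36A1 at SPARC 0.19 higher (adjusted p = 0.0404). Taking only protein-coding neighbours, a set added after seeing the data, 16 of 20 were tested and the same count of 3 passed. Among these were LAS1L and MTMR8 at the ZC4H2 locus (-0.01 and 0.44) and ATOX1 and G3BP1 beside SPARC (-0.84 and -0.36). Beside GRHL3 they held IL22RA1 (0.58, adjusted p = 0.0200) and IL28RA, now IFNLR1 (0.29, adjusted p = 0.0103), both higher as GRHL3 was but short of a difference of 1.

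Upstream sequence is shown for the falls SPARC and GNG11 and for ZC4H2, whose neighbour ZC3H12B was well above background only in CDK2-/-. These are the 250 bases before the start in RefSeq's windows on GRCh38.p14, read in the direction of the gene, with every CG in capitals. No methylation or binding was measured in this series.
SPARC (chr5:151686916-151687165, minus strand): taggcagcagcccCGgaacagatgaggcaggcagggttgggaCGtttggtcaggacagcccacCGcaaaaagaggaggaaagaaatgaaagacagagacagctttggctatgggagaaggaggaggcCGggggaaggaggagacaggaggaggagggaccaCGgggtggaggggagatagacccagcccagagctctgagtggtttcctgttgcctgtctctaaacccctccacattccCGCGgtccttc
GNG11 (chr7:93921485-93921734, plus strand): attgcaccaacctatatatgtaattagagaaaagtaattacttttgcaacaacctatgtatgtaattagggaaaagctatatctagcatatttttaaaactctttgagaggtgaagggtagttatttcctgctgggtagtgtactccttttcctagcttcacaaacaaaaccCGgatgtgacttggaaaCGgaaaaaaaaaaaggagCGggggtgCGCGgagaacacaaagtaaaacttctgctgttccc
ZC4H2 (chrX:65034742-65034991, minus strand): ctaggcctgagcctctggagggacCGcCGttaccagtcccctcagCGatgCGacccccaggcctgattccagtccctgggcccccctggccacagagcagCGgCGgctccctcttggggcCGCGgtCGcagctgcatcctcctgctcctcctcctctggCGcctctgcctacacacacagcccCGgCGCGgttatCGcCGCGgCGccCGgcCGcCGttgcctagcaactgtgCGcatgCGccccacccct
These stretches hold 7 CG pairs in SPARC, 5 in GNG11 and 22 in ZC4H2, with a GC content of 59.2%, 38.4% and 71.6%. Over whole windows of 300 bases, which add 50 bases after the start, the ratio of observed to expected CG was 0.4 for SPARC, 0.602 for GNG11 and 0.757 for this ZC4H2 window, beside a median of 0.579 over 35114 windows. The other ZC4H2 window (chrX:64976401-64976700) had a ratio of 0.417 and a GC content of 54%.

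All 5 genes had windows in the reference, 10 in all, since DPEP1 has 4 and ZC4H2 and GRHL3 have 2 each. Both strands were searched for 5 motifs, of which CANNTG, AACCGGTT and TGANTCA read the same on both. CANNTG was in 7 of the 10 windows and in 4 of the 5 genes, not in GNG11, beside 68.7% of all windows. GGGCGG was in 1 window, of GRHL3, beside 45%, and TATAAA in 1, of DPEP1, beside 12%. AACCGGTT, the form bound by Grainyhead factors, and TGANTCA were in none, beside 0.134% and 7.71% of all windows. No 2 motifs overlapped in these windows.

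The genes most like each member over the 6 arrays of CDK2-/-, R50 and WT+NU6102 were found by the root mean square distance of log2 differences from the WT mean, over the 15317 tested genes of the reference table. This measure is led by the CDK2-/- arrays on which the members were chosen, so it is a description. GRHL3 lay closest to PRUNE2 (distance 0.51), UTS2 (0.55) and ICAM1 (0.57). UTS2, the vasoactive peptide urotensin, differed from WT by 4.23 in CDK2-/-, by -1.18 with NU6102 and by 0.75 in R50 on the log2 scale, where GRHL3 had 4.66, -1.03 and 0.58. DPEP1 lay closest to the zinc finger genes ZNF84 (0.53), ZNF613 (0.54) and ZNF426 (0.60). ZC4H2 lay closest to DPEP1 (0.69), ZNF426 (0.86) and ZNF350 (0.87). The 4 zinc finger genes and ICAM1 were well above background on the 2 CDK2-/- arrays only. PRUNE2 was so there and on the first WT array, and UTS2 on neither WT+NU6102 array. The likeness of these genes to a member with NU6102 or in R50 therefore rests partly on levels near background, and the -1.18 of UTS2 is no measured difference.

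The falls had no close match. SPARC lay at 1.22 from LRP1B, 1.28 from the peptide transporter SLC15A1 and 1.49 from IFI27, and GNG11 at 1.78 from IFI44, 1.88 from BST2 and 2.00 from IFI6. The genes nearest to GNG11 and the third nearest to SPARC are interferon-induced. IFI44 differed from WT by -7.28 in CDK2-/-, -3.19 with NU6102 and -2.02 in R50 on the log2 scale, where GNG11 had -6.65, -1.02 and -4.08. In CDK2-/- IFI44, LRP1B, SLC15A1 and GNG11 were not well above background. Their measured falls there are only at least 63.2-fold, 29.1-fold, 18.6-fold and 25.2-fold. No gene among these had the rise of SPARC in R50, where LRP1B was 0.61 and SLC15A1 0.13 above WT and IFI27 at -0.31.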

How the data were processed

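RNA of 4 groups was labelled with Cy3 and hybridized to 1-colour Agilent arrays of 60-base probes. The authors deposited the intensity of each spot as Agilent Feature Extraction 11.5.1.1 gave it, background-subtracted and not normalized between arrays, and log2 values of 28719 probes from GeneSpring GX. Those log2 values equal the log2 signal less a constant per array, centred on each probe's median, to within 0.05 for 99.76% to 99.83% of probes. In the re-analysis, control and outlier-marked spots were dropped, the log2 signal was taken less the array's 75th percentile, and spots of a probe were averaged. A probe was well above background where at least 0.5 of its spots were. Of 50599 probes 28677 were tested, those that passed on each array of some group. Limma 3.58.1 in R 4.3.3 fitted the 4 groups together (two-sided, Benjamini-Hochberg over all tested probes, threshold 0.05). A gene with several probes was represented by its brightest, and the code was tested on simulated data.

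The members and gene lists were chosen with earlier results of these data known. Named genes are the members, CDK2, the 3 next highest and lowest genes, the 3 most alike, the neighbours and the list genes called. Symbols are those of the files. Upstream windows came from RefSeq (GRCh38.p14), whose build differs from the hg19 of the probes. Alternatives were normexp correction with an offset of 50, quantile normalization, the authors' values, other filters, a trended prior, a replicate block, a slide block, no moderation, the methods' t-test and leaving out each array. Keeping outlier spots was added after seeing the data. The paper's protein measurements were not used here.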

Additional observations from a re-analysis of the deposited data

How the results depend on the processing

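In CDK2-/- against WT all 5 members kept their direction under every alternative run. Under normexp correction the log2 differences were -6.35 (SPARC), -3.04 (GNG11), 4.01 (ZC4H2), 3.32 (DPEP1) and 3.81 (GRHL3), which its offset makes smaller for dim probes, and GNG11 was -6.29 both in the authors' values and with outlier spots kept. Leaving out each array gave -8.10 to -7.54, -6.80 to -6.51, 5.03 to 5.21, 4.90 to 5.13 and 4.58 to 4.73. With NU6102, 4 members passed, 2 with no filter on dim probes, 2 without moderation and 2 to 4 without 1 array. In R50 against WT 3 passed, 0 by the methods' t-test after adjustment and 3 to 4 without 1 array, and against WT+NU6102 4 passed, 2 by the methods' t-test with or without adjustment and 4 to 5 without 1 array. With only probes well above background on all arrays, SPARC and GRHL3 alone could be tested, and 2, 1 and 2 passed. DPEP1 with NU6102 turned to 0.13 under quantile normalization and 0.000997 in the authors' values, and ran from -0.31 to 0.30 without 1 array, never past the threshold. In the t-test that the methods name for 2 groups alone, the adjusted p in R50 against WT was 0.124 for SPARC, 0.0662 for GNG11 and 0.122 for ZC4H2. Same-numbered arrays shared only a number, with correlations of their deviations between -0.0280 and 0.0452. With a replicate block ZC4H2 lost its call with NU6102 (adjusted p = 0.0541) and DPEP1 passed in R50 against WT+NU6102 (adjusted p = 0.0249), so that 3, 3 and 5 members passed. Within the slide of WT and WT+NU6102 3 passed with NU6102. Of the other named genes' values under the alternatives, 744 kept their call, 61 lost it and none changed direction, and under normexp correction CTGF (-0.89), SPRR2A (0.58), COL1A1 (0.83), BET1 (-0.83) and C16orf55 (0.83) fell short of a difference of 1 in CDK2-/-. Among the members, ZC4H2 fell short of a difference of 1 in R50 under normexp correction, at -0.46 against WT and -0.33 against WT+NU6102. Signal over background limits GNG11, ZC4H2 and DPEP1, whose levels in R50 are bounds.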

Other observations

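Epidermal and barrier genes, the class that Grainyhead factors are known to regulate, were described beside GRHL3. Of 27 listed, 19 were tested, and 2 passed both thresholds in CDK2-/- against WT, both higher, beside 4.74% of all probes in either direction. SPRR2A, a cornified envelope protein, read 36.1 and 31.4 in CDK2-/- and between 4.82 and 6.95 on the other 6 arrays, where it was not well above background, so that CDK2-/- was at least 1.58-fold above WT (adjusted p = 0.000534). That bound is under the difference of 1 on the log2 scale by which SPRR2A was counted, SPRR2A could be tested only because of its level in CDK2-/-, and under normexp correction it was at 0.58, which left 1 gene past both thresholds. OVOL1, a zinc finger transcription factor of epithelia, read 1596 and 1504 in WT and 3313 and 3212 in CDK2-/- (log2 difference 1.19, adjusted p = 0.000120). The median of the 19 in CDK2-/- was 0.04, beside 0.02 over all genes. With NU6102 1 of the 19 passed, beside 6.49% of all probes. This was PRSS8, a membrane protease of tight epithelia, which fell by 1.37. In R50 against WT+NU6102 4 passed, all higher, beside 10.9% of all probes in either direction: CLDN4 (1.57), PRSS8 (1.51), PPL (1.50) and TGM1 (1.48), where GRHL3 was 1.62 higher. In CDK2-/- against WT these 4 differed by 0.33, -0.20, -0.09 and 0.50, where GRHL3 was 4.66 higher. In R50 against WT CLDN4 was at 0.70, PRSS8 at 0.14 and PPL at 0.83. TGM1, the transglutaminase of the epidermis, was also 1.13 higher in R50 than in WT, a call lost without the first WT array (adjusted p = 0.0545) or the second R50 array (adjusted p = 0.0570). Of 5 keratinocyte markers KRT10 was well above background on all 8 arrays, KRT14 on 3 and KRT1, KRT5 and TP63 on none.

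COL1A1, a fibrillar collagen and the 1 fibroblast marker tested, was 1.22 higher in CDK2-/- than in WT (adjusted p = 0.000376), where SPARC, a collagen-binding protein, was 226-fold lower. It read 95.3 and 101 in WT, 58.3 and 62.0 in WT+NU6102, 209 and 213 in CDK2-/- and 144 and 157 in R50. With NU6102 both genes were lower than in WT and in R50 both were higher.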
